A study of Mus musculus with 12 samples.

Results

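The carnitine shuttle and ketone body genes examined here are the 9 genes Cpt1a, Cpt1b, Cpt1c, Cpt2, Slc25a20, Crat, Crot, Oxct1 and Bdh1, taken as the array rows to which the platform annotation gives that single symbol, with the row of the highest mean over the 12 arrays standing for a gene with several rows. Of the 9 genes, 8 had such a row, among 22180 genes on the array. The row of Cpt1b, the muscle form of the first shuttle enzyme, is shared with the symbols Gm44502 and Chkb, so no value is given for it. Tested were 7 of the 9, among 13286 genes whose value exceeded the median of the whole table, 4.93 on the log2 scale, on at least 3 arrays. Bdh1 lay under that limit on all 12 arrays.

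Whole-transcript arrays had been run on mouse colorectal tumour tissue in 4 groups of 3 arrays each, given as 3 mice per group in the series' design text. The groups were tumours in fatty liver treated with Anti-VEGF, tumours in fatty liver treated with vehicle, tumours in healthy liver treated with Anti-VEGF, and tumours in healthy liver treated with vehicle. Anti-VEGF is an antiangiogenic agent, and the labels call the same arm AAD. The tumour line, the host strain, sex and age, the way the liver was made fatty, and the agent's identity, dose and duration are not given in the labels. The comparisons ask how tumour tissue differs between the livers, how it differs with antiangiogenic treatment, and whether the answer to that varies with the liver.

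Long-chain fatty acids cannot cross the inner mitochondrial membrane as acyl-CoA, so the cell moves the acyl group onto carnitine at the outer membrane, carries the acylcarnitine inward, and moves the acyl group back onto CoA inside. Entry through the first enzyme is the controlled step of long-chain fatty acid oxidation, and malonyl-CoA, the product of acetyl-CoA carboxylase, inhibits it. Ketone bodies are made from acetyl-CoA chiefly by the liver, leave it through monocarboxylate transporters, and are burned by tissues that carry the transferase encoded by Oxct1, which hepatocytes lack.

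The steps of the shuttle are split over a few proteins. Cpt1a (Entrez gene 12894), Cpt1b (12895) and Cpt1c (78070) encode the liver, muscle and brain forms of carnitine palmitoyltransferase 1. Slc25a20 (57279) encodes the carnitine-acylcarnitine translocase of the inner membrane, and Cpt2 (12896) the transferase on its inner face. Crat (12908) and Crot (74114) encode carnitine acetyltransferase and the peroxisomal carnitine octanoyltransferase. Oxct1 (67041) encodes the transferase that activates acetoacetate, and Bdh1 (71911) the mitochondrial 3-hydroxybutyrate dehydrogenase.

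Cpt1a, Slc25a20 and Cpt2 are the members whose levels differed between the livers, so the sequence upstream of each is shown. RefSeq on GRCm38.p6 places the 250 bases before the annotated start of Cpt1a at chr19:3323051-3323300 on the plus strand, of Slc25a20 at chr9:108661886-108662135 on the plus strand, and of Cpt2 at chr4:107923590-107923839 on the minus strand. Each is written 5′ to 3′ on the gene's strand, and capitals mark matches to AGGTCA on either strand, the half-site of many nuclear receptors.
Cpt1a: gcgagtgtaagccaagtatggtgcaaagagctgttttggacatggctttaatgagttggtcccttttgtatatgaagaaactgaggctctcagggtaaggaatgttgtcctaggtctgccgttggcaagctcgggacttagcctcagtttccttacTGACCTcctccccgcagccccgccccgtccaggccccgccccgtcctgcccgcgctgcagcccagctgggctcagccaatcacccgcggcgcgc
Slc25a20: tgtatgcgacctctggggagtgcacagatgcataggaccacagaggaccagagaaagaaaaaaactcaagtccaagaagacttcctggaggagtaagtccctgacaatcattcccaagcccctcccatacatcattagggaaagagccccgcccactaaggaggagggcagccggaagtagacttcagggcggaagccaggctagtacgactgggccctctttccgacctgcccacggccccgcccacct
Cpt2: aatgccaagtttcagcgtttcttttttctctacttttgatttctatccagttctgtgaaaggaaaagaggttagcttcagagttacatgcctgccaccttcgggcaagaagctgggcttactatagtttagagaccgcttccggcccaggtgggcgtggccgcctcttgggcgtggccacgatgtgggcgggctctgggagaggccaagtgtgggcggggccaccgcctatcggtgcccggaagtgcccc

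The Cpt1a window held 1 match, as TGACCT on the strand shown, 94 bases before the start. The Slc25a20 and Cpt2 windows held 0. Among the 7 of 9 members with a window in RefSeq's table (Cpt1b and Crat are the others), Cpt1c also held 1 match, 146 bases before its start. Of all 32851 windows of the same length in the table, 4607 (14%) held AGGTCA on either strand. The direct repeat DR1, which is AGGTCA, any 1 base and AGGTCA again, the arrangement that PPAR and RXR dimers bind, was found in 0 of the members' windows and in 11 (0.0335%) of all windows, each of which also counts among the AGGTCA matches. The GC share was 59.6% for Cpt1a, 56.8% for Slc25a20 and 56.8% for Cpt2, against a median of 52.4% over all windows.

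Several properties of the arrays bear on every result below. Along the leading principal component over the tested genes, with 76.2% of the variance, fatty liver Anti-VEGF array 3 (9.26) and healthy liver vehicle array 2 (-4.96) lay between the other arrays of the livers. Some arrays within a group hardly differed: over the tested genes the SD of their difference was 0.163 for fatty liver vehicle arrays 1 and 3, 0.148 to 0.156 among the Anti-VEGF arrays of healthy liver, and 0.163 for healthy liver vehicle arrays 1 and 3, against 0.391 to 0.636 for the other pairs within groups. Xist was at 10.58 and 10.45 on the first of these vehicle pairs and at 8.10 and 8.43 on the second, and at most 4.32 on the other 8 arrays. Whether nearly alike arrays came from separate mice cannot be told from the values, and if they did not, the p-values measure spread that is partly technical. Hepatocyte transcripts were scarce: 7 of 12 hepatocyte markers, Alb, Cps1 and Cyp2e1 among them, were under the limit on every array, with a list mean of 4.28 to 4.40 in fatty and 4.33 to 4.45 in healthy liver. Of 13 colorectal epithelium markers 7, including Epcam, Vil1, Krt20 and Cdh17, were also under the limit on every array. The limit is the median of the whole table and not a threshold of detection, so values under it do not show absence. Of the 6 epithelial markers tested, 1 was higher and 2 were lower in fatty liver under each treatment. Krt8, one of those lower, was at 9.12 to 10.04 in fatty and 10.17 to 10.82 in healthy liver, and Cdh1, the one higher, was at 5.97 to 8.67 in fatty and 5.63 to 6.40 in healthy liver.

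Under vehicle, 3 of the 7 tested members differed between livers. Cpt1a and Slc25a20, which carry out the first and the inward step, were higher in fatty liver tumours by about 1.40-fold and 1.41-fold, and Cpt2, which carries out the last, was lower at 0.777 times the healthy liver level. Crat, Crot, Cpt1c and Oxct1 did not pass. Of all tested genes 49.6% passed in this comparison in limma at a Benjamini-Hochberg adjusted p under 0.05, 19.2% higher and 30.4% lower, so a share of 3 in 7 is near that of the array as a whole. The same 3 had an unadjusted p under 0.05, against 57% of all tested genes. The members' median log2 difference was -0.03, against -0.12 over all tested genes.

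Cpt1a was at 9.93, 10.04 and 9.92 (log2) on the fatty liver vehicle arrays, and at 9.28, 9.73 and 9.41 on the healthy liver vehicle arrays. All fatty liver arrays were above all healthy liver arrays, and healthy liver array 2 was the closest. The group means were 9.96 ± 0.07 and 9.48 ± 0.23 (SD, n = 3 each) in that order, a log2 difference of 0.49 (SE 0.16, 95% confidence interval 0.13 to 0.84, limma adjusted p = 0.0291). In bulk tissue, fewer cells of a type and less RNA per cell cannot be told apart, so a level here belongs to the tissue and not to any one cell type.

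The translocase gene Slc25a20 was at 8.45, 9.09 and 8.38 on the fatty liver vehicle arrays, and at 7.98, 8.28 and 8.18 on the healthy liver vehicle arrays. The groups did not overlap, but fatty liver array 2 stood well above the rest and the others lay close to the highest healthy liver array. Its log2 difference was 0.49 (SE 0.18, 95% confidence interval 0.08 to 0.90, limma adjusted p = 0.0468). Without fatty liver vehicle array 2 the difference was 0.26 and did not pass (limma adjusted p = 0.16). That array had an endothelial marker mean of 7.39 and a fibroblast marker mean of 8.57, against at most 6.07 and 6.74 on the other fatty liver vehicle arrays, and the part of those cells in the difference was not tested. With no filter on low values, and with only the compared groups in the fit, the difference also did not pass (limma adjusted p = 0.0669 and 0.099).

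Cpt2 was at 9.06, 8.85 and 8.92 on the fatty liver vehicle arrays, and at 9.35, 9.17 and 9.40 on the healthy liver vehicle arrays. All fatty liver arrays were below all healthy liver arrays. The means were 8.94 ± 0.10 and 9.31 ± 0.12 (SD, n = 3 each) in that order, a log2 difference of -0.36 (SE 0.11, 95% confidence interval -0.62 to -0.11, limma adjusted p = 0.0233). The 3 arrays of each group did not overlap for these 3 members of the 7, and for 60.8% of all tested genes.

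**Figure D1:**
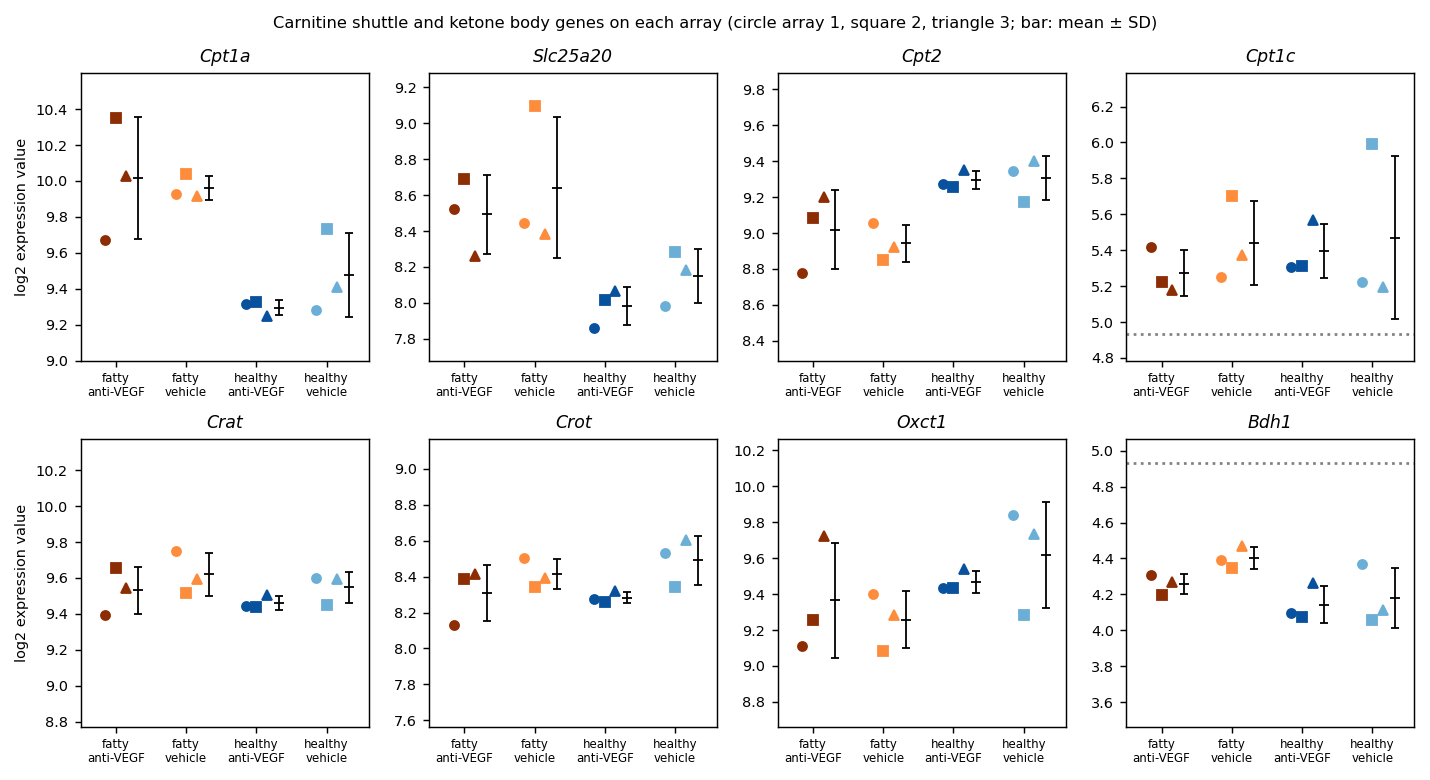
Log2 expression value of the 8 members with a row (y axis) on each array, by group (x axis; circle, square and triangle are arrays 1, 2 and 3, the bar is mean ± SD, n = 3, and the dotted line is the limit of 4.93). Cpt1a and Slc25a20 sit higher on the fatty liver arrays and Cpt2 lower, while Crat spans 9.39 to 9.75 over all 12 arrays and Bdh1 stays under the limit.

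The remaining members did not pass between livers under vehicle. Crat, which exchanges acetyl groups between CoA and carnitine, differed by 0.07 (SE 0.09, 95% confidence interval -0.13 to 0.28), and Crot, which hands shortened peroxisomal chains to carnitine, by -0.08 (SE 0.10, -0.30 to 0.14). Cpt1c, whose protein has little transferase activity, was at 5.25, 5.70 and 5.37 in fatty and 5.22, 5.99 and 5.20 in healthy liver, close to the limit, with array 2 the highest in each. Oxct1, needed to burn ketone bodies, was at 9.40, 9.09 and 9.29 in fatty liver and 9.84, 9.28 and 9.73 in healthy liver, where array 2 fell inside the fatty liver range. Its log2 difference was -0.36 (SE 0.18, 95% confidence interval -0.75 to 0.03, limma adjusted p = 0.112). The replicate number as a block in a fit of the 6 vehicle arrays alone, added after the data were seen, called the same difference (limma adjusted p = 0.0246), while the block in the fit of all 12 arrays did not (limma adjusted p = 0.0789). With healthy liver vehicle array 2 left out it was -0.53 and passed (limma adjusted p = 0.0216).

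Under Anti-VEGF, the first steps of the shuttle again differed between livers. Cpt1a was higher in fatty liver tumours by 1.65-fold and Slc25a20 by 1.43-fold, and no member passed as lower. The count was 2 of 7, against 45.8% of all tested genes, made up of 18.2% higher and 27.6% lower. Cpt2 joined them at an unadjusted p under 0.05, against 54.6% of all tested genes. The members' median log2 difference was 0.03, against -0.13 over all tested genes. The Anti-VEGF arrays are different samples from those of the vehicle comparison, but all 12 arrays share 1 estimate of the spread.

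Cpt1a was at 9.67, 10.35 and 10.03 on the fatty liver Anti-VEGF arrays, and at 9.31, 9.33 and 9.25 on the healthy liver Anti-VEGF arrays. The fatty liver arrays spread widely and all lay above the tightly grouped healthy liver arrays. The log2 difference was 0.72 (SE 0.16, 95% confidence interval 0.36 to 1.08, limma adjusted p = 0.00553).

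Slc25a20 was at 8.52, 8.69 and 8.26 on the fatty liver Anti-VEGF arrays, and at 7.86, 8.01 and 8.07 on the healthy liver Anti-VEGF arrays. The groups did not overlap. The log2 difference was 0.51 (SE 0.18, 95% confidence interval 0.10 to 0.92, limma adjusted p = 0.0433).

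Cpt2 was at 8.78, 9.08 and 9.20 on the fatty liver Anti-VEGF arrays, and at 9.27, 9.26 and 9.35 on the healthy liver Anti-VEGF arrays. Every fatty liver array was again below every healthy liver array, with fatty liver array 3 the closest. The log2 difference of -0.27 (SE 0.11, 95% confidence interval -0.53 to -0.02) did not pass (limma adjusted p = 0.0721). Leaving out fatty liver Anti-VEGF array 3 gave -0.36, which passed (limma adjusted p = 0.021), and leaving out array 1 gave -0.15. Groups did not overlap for 3 of the 7 members, against 58.5% of all tested genes. Crat (0.07), Crot (0.03), Cpt1c (-0.12) and Oxct1 (-0.10) had log2 differences that did not pass, and the 95% confidence interval of Oxct1 ran from -0.50 to 0.29.

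**Figure D2:**
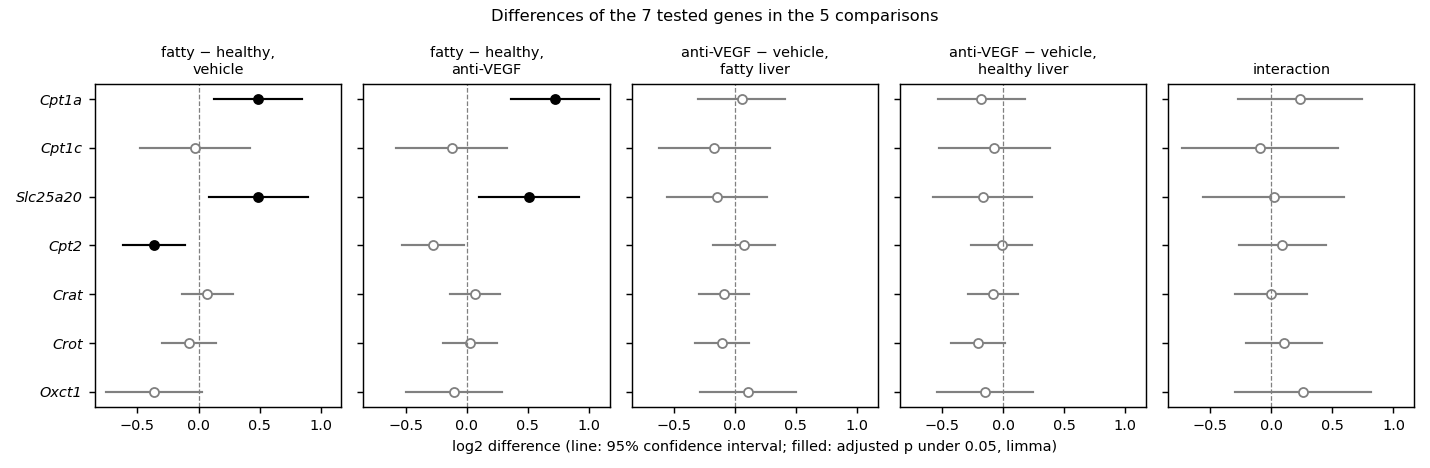
Log2 differences of the 7 tested members (x axis) in the 5 comparisons, with 95% confidence intervals; filled points passed an adjusted p of 0.05 in limma. The filled points are Cpt1a, Slc25a20 and Cpt2 under vehicle and Cpt1a and Slc25a20 under Anti-VEGF, and every interval of the treatment comparisons and of the interaction includes 0.

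With the treatments averaged, a comparison added after the data were seen, the same 3 members passed: Cpt1a by 0.60 (1.52-fold, SE 0.11, limma adjusted p = 0.00108), Slc25a20 by 0.50 (1.42-fold, limma adjusted p = 0.00654) and Cpt2 by -0.32 (0.802-fold, limma adjusted p = 0.0058). Of all tested genes 63.1% passed in that comparison, 22.8% higher and 40.3% lower. Over the 6 arrays of each liver, Cpt1a ranged from 9.67 to 10.35 with a median of 9.98 in fatty liver, and from 9.25 to 9.73 with a median of 9.32 in healthy liver. The 6 arrays of one liver did not stand fully apart from those of the other for any of the 7 members, while they did so for 31% of all tested genes.

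The calls rest on few independent samples. When each set of nearly alike arrays was averaged to 1 sample, none of the 5 differences passed in limma: for Cpt1a the values were 0.44 under vehicle (adjusted p = 0.256) and 0.72 under Anti-VEGF (adjusted p = 0.214), for Slc25a20 0.57 (adjusted p = 0.177) and 0.51 (adjusted p = 0.338), and for Cpt2 under vehicle -0.35 (adjusted p = 0.221). The lone averaged Anti-VEGF sample of healthy liver was assumed to vary like the other groups. In that fit 721 and 510 of all tested genes still passed under vehicle and under Anti-VEGF. With array 2 of each vehicle group alone, which leaves out the arrays high in Xist, and with those lone samples assumed to vary like the other groups, the vehicle differences were 0.31 for Cpt1a, 0.81 for Slc25a20 and -0.32 for Cpt2, none of which passed.

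With each array left out in turn, Cpt1a under Anti-VEGF passed in all 12 fits, with log2 differences of 0.55 to 0.89. Under vehicle, Cpt1a passed in 7 of 12 fits (0.39 to 0.62), failing without any one fatty liver vehicle array or without healthy liver vehicle array 1 or 3. Cpt2 under vehicle passed in 8 of 12 (-0.43 to -0.32), failing without fatty liver vehicle array 2 or 3 or healthy liver vehicle array 1 or 3. Slc25a20 passed in 5 of 12 fits in each comparison, and its difference stayed above 0 in all of them. It failed in both when any Anti-VEGF array of healthy liver, vehicle array 1 or 3 of healthy liver, or Anti-VEGF array 1 of fatty liver was left out, and besides without fatty liver vehicle array 2 under vehicle and without fatty liver Anti-VEGF array 2 under Anti-VEGF.

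**Figure D3:**
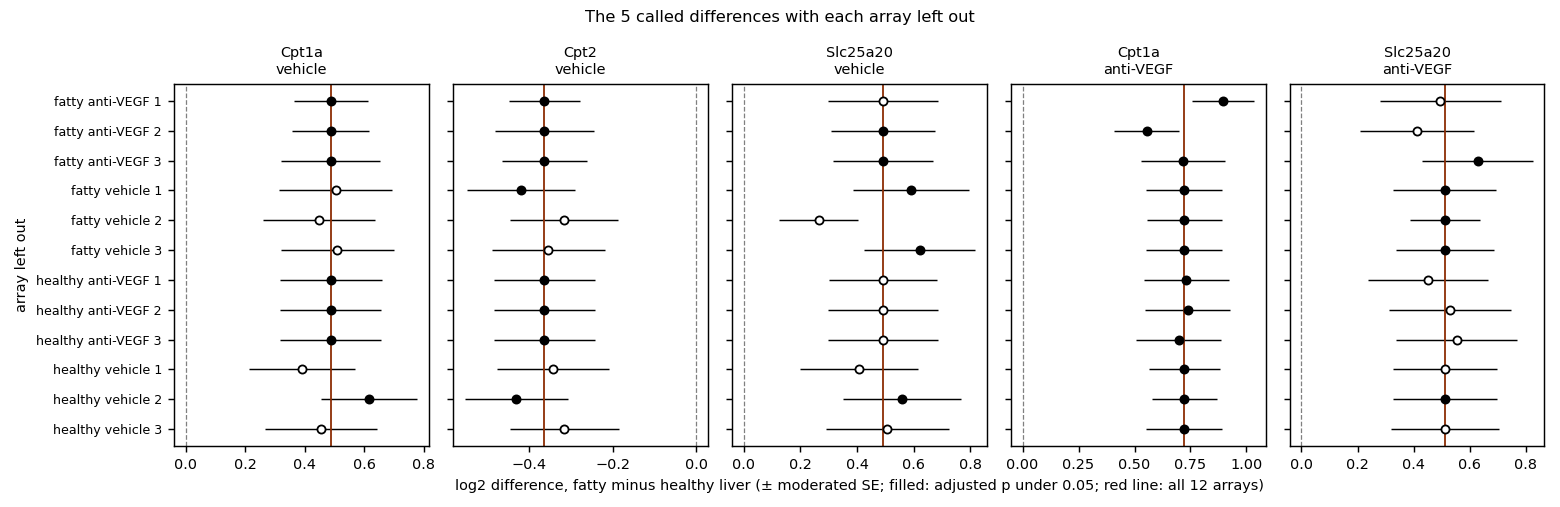
Log2 difference, fatty minus healthy liver (x axis, ± moderated SE), of the 5 differences that passed, with each of the 12 arrays (y axis) left out in turn; filled points passed in limma and the red line is the value with all arrays. Cpt1a under Anti-VEGF is filled in every fit, and Slc25a20 under vehicle drops to 0.26 without fatty liver vehicle array 2.

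Transcripts of immune cells moved with the liver beside these genes. The mean of 10 macrophage markers was 10.74 to 10.99 on the fatty liver Anti-VEGF arrays and 10.90 to 10.96 on the fatty liver vehicle arrays, against 8.82 to 8.83 on the healthy liver Anti-VEGF arrays and 8.98 to 9.90 on the healthy liver vehicle arrays. All 9 tested macrophage markers were higher in fatty liver under each treatment, with median log2 differences of 1.84 under vehicle and 2.32 under Anti-VEGF, and Marco was under the limit on every array. Of all tested genes, 19.2% passed as higher under vehicle and 18.2% under Anti-VEGF. With nearly alike arrays averaged, 5 of the 9 passed under vehicle and 7 under Anti-VEGF, and with array 2 alone in each vehicle group 5 passed under vehicle. The mean of 10 T and NK cell markers was 5.57 to 8.79 in fatty and 4.90 to 5.59 in healthy liver. Of these markers, 10 passed as higher under vehicle and 9 under Anti-VEGF. With only the compared groups in the fit, 5 passed under Anti-VEGF. With nearly alike arrays averaged, most of the T and NK cell calls were lost under vehicle and all of them under Anti-VEGF. With array 2 alone in each vehicle group, all of the T and NK cell calls under vehicle were lost. Healthy liver vehicle array 2, which had the highest Cpt1a and the lowest Cpt2 of its liver, also had the highest macrophage mean there (9.90), an endothelial mean of 8.60, against at most 5.37 on the other healthy liver arrays, and a fibroblast mean of 10.16, against at most 7.38. Within fatty liver, Anti-VEGF array 1 had the lowest macrophage mean (10.74) together with the lowest Cpt1a (9.67) and the lowest Cpt2 (8.78). The part of these cells in the shuttle genes' differences was not tested. Muscle markers, relevant to a muscle form of the shuttle enzyme, averaged 4.82 to 5.50 in fatty and 4.82 to 5.14 in healthy liver, and Myh1 and Myh4 were under the limit on every array.

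**Figure D4:**
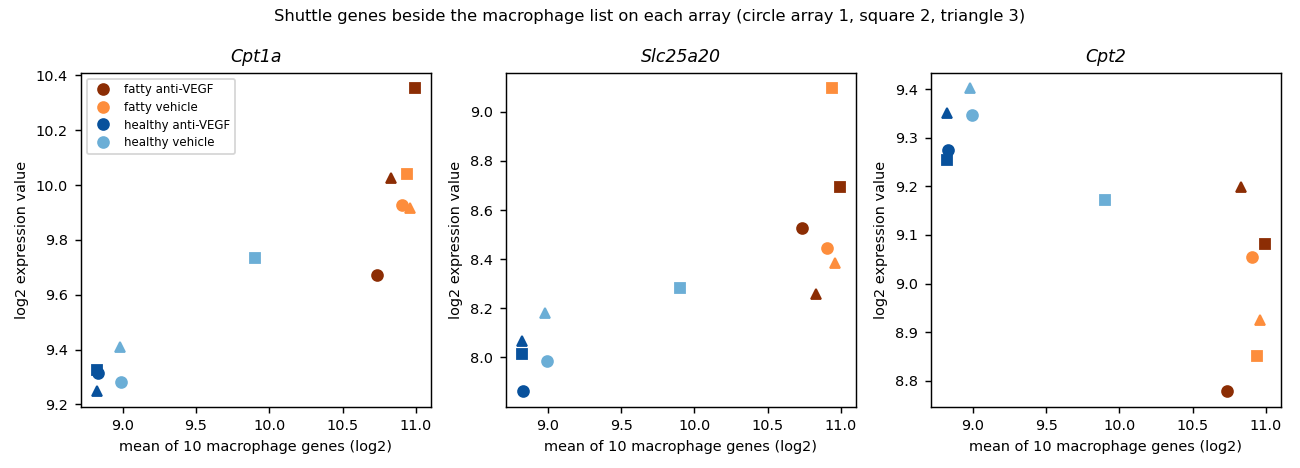
Log2 expression value of Cpt1a, Slc25a20 and Cpt2 (y axis) against the mean log2 value of 10 macrophage markers (x axis) on each of the 12 arrays. The fatty liver arrays lie at macrophage means of 10.74 or more, 5 healthy liver arrays at 8.99 or less, and healthy liver vehicle array 2 lies between them at 9.90.

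Anti-VEGF treatment left no member past the threshold in either liver. Xist was high on vehicle arrays 1 and 3 of each liver and on no Anti-VEGF array. The treatment comparisons can therefore not be fully separated from a difference that goes with Xist. In fatty liver 0 of 7 members passed, against 0.00753% of all tested genes (1 gene), and 0 of 7 had an unadjusted p under 0.05 in limma, against 5.86% of all. The largest differences were -0.17 for Cpt1c (95% confidence interval -0.62 to 0.28) and -0.15 for Slc25a20 (-0.56 to 0.26), and Cpt1a differed by 0.06 (-0.30 to 0.41). In fold terms the interval of Cpt1a ran from 0.811 to 1.33, so a change within that range is not excluded. The Anti-VEGF and vehicle arrays overlapped for every tested member in fatty liver, where 8.06% of all tested genes did not overlap.

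In healthy liver 0 of 7 members passed, as did 0% of all tested genes, and 0 of 7 had an unadjusted p under 0.05, against 8.41% of all. Crot came closest. It was at 8.27, 8.26 and 8.32 on the Anti-VEGF arrays, and at 8.53, 8.34 and 8.60 on the vehicle arrays. The groups did not overlap, the single such member of 7, against 24.8% of all tested genes. The log2 difference was -0.21 (SE 0.10, 95% confidence interval -0.43 to 0.01, limma adjusted p = 0.617). Cpt1a differed by -0.18 (-0.54 to 0.18), Slc25a20 by -0.17 (-0.58 to 0.24) and Oxct1 by -0.15 (-0.54 to 0.24).

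No member passed the test of whether the treatment difference varied with the liver: 0 of 7 passed the interaction, as did 0% of all tested genes, and 0 of 7 had an unadjusted p under 0.05, against 5.1% of all. The interaction of Cpt1a was 0.24 (SE 0.23, 95% confidence interval -0.27 to 0.74) and that of Oxct1 0.26 (SE 0.25, -0.30 to 0.81), with limma adjusted p-values of 0.979 each. With arrays weighted by their estimated quality, 1 member passed in fatty liver and 1 in the interaction (Cpt1a in both, an interaction of 0.43 with limma adjusted p = 0.04), and 2 in healthy liver (Crot and Oxct1). In that fit 1848, 1477 and 1661 of all tested genes passed in those comparisons in that order.

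Among the enzymes and carriers that supply carnitine, every change that passed was a fall in fatty liver tumours. Of 6 tested genes of 7 listed, 4 fell and 0 rose under each treatment, with median log2 differences of -0.76 under vehicle and -0.65 under Anti-VEGF. Falls that passed made up 30.4% of all tested genes under vehicle and 27.6% under Anti-VEGF. Slc22a4, an organic cation and carnitine transporter gene, was at 8.10, 7.46 and 8.10 on the fatty liver vehicle arrays, and at 8.96, 8.50 and 8.97 on the healthy liver vehicle arrays. The groups did not overlap, and the log2 difference was -0.93 (SE 0.21, limma adjusted p = 0.00535) under vehicle and -0.99 under Anti-VEGF. Tmlhe, which encodes the first enzyme of carnitine synthesis, fell by 1.17 on the log2 scale under vehicle and by 0.82 under Anti-VEGF. Shmt1, a serine hydroxymethyltransferase gene whose enzyme has been proposed for the aldolase step of the same route, fell by 0.84 and 0.59, and the carnitine transporter gene Slc22a21 by 0.68 and 0.71. The fall of Slc22a21 under vehicle passed in 5 of 12 fits with an array left out, and did not pass with no filter on low values or with quantile normalization. Under Anti-VEGF, Shmt1 passed in 4 of the 12 fits, Slc22a21 in 6, Tmlhe in 7 and Slc22a4 in 12. There Shmt1 and Slc22a21 also did not pass with no filter or with only the compared groups in the fit. The main carnitine importer gene Slc22a5 had differences of -0.27 and -0.09 that did not pass, and neither did those of Aldh9a1. Bbox1, the last enzyme of carnitine synthesis, was under the limit on every array. Under Anti-VEGF the count of 4 became 1 when any one Anti-VEGF array of healthy liver, or array 1 or 2 of fatty liver, was left out, and 0 in both comparisons with nearly alike arrays averaged.

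Among the tested ketone body genes the largest differences were those of the transporter genes Slc16a7 and Slc16a1. Of 8 tested genes of 13 listed, 2 rose and 3 fell under vehicle, and 2 rose and 2 fell under Anti-VEGF, with a median log2 difference of -0.23 in each. Slc16a7, a monocarboxylate transporter gene, was at 7.77, 7.47 and 7.65 on the fatty liver vehicle arrays and at 5.72, 6.05 and 5.67 on the healthy liver vehicle arrays. On the Anti-VEGF arrays it was at 6.90, 7.64 and 7.41 in fatty liver and at 4.85, 5.17 and 5.18 in healthy liver. The livers stood far apart under each treatment, and the log2 differences were 1.82 (3.52-fold, SE 0.19, limma adjusted p = 0.000148) under vehicle and 2.25 (4.75-fold, SE 0.19, limma adjusted p = 2.93e-05) under Anti-VEGF. These were the ketone list's only calls left with nearly alike arrays averaged, 1 in each comparison.

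Slc16a1, a monocarboxylate transporter gene active in lactate and ketone body exchange, moved the other way. It was at 10.23, 9.72 and 10.26 on the fatty liver vehicle arrays, and at 11.14, 10.78 and 11.10 on the healthy liver vehicle arrays. The log2 difference was -0.93 (SE 0.16, limma adjusted p = 0.00127) under vehicle and -0.55 (limma adjusted p = 0.0178) under Anti-VEGF. Slc16a6, a transporter gene linked to ketone body export in zebrafish liver, rose by 0.45 and 0.44. The listed transporter gene Slc16a3 did not pass under either treatment. Its means were 9.53 in fatty and 9.55 in healthy liver under vehicle, and 9.67 and 9.72 under Anti-VEGF. Bsg, also on the list, did not pass either. Acat1, the mitochondrial thiolase that splits or forms acetoacetyl-CoA, fell by 0.41 and 0.34. Aacs, which activates acetoacetate in the cytosol and is named after its values were seen, fell by 0.57 under vehicle and was at -0.38 under Anti-VEGF, which did not pass. Oxct2a, a testis form of the ketone body transferase, was under the limit on every array. Under Anti-VEGF the 2 that fell became 1 when array 1 of healthy liver or array 2 of fatty liver was left out, 0 when array 3 of healthy liver was left out, and 4 when array 3 of fatty liver was left out, all of them Anti-VEGF arrays.

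Of the 11 genes listed for control of fatty acid entry, which include receptor and coactivator genes without a direct part in it, 7 were tested. Under vehicle 1 rose and 2 fell, with a median of -0.25, while 1 rose and 1 fell under Anti-VEGF, with a median of -0.08. Acaca, the acetyl-CoA carboxylase whose product inhibits carnitine palmitoyltransferase 1, was at 8.26, 7.84 and 8.18 on the fatty liver vehicle arrays, and at 9.20, 8.70 and 9.16 on the healthy liver vehicle arrays. Its log2 difference was -0.93 (SE 0.20, limma adjusted p = 0.00412) under vehicle, and -0.49 (limma adjusted p = 0.0654) under Anti-VEGF, which did not pass. Ppard, a fatty acid receptor gene of the PPAR family, fell by 0.37 and 0.49. Ppargc1b, a coactivator gene of mitochondrial programmes, rose by 0.57 and 0.69, and its healthy liver means of 4.60 and 4.69 lay under the limit. Ppara, Ppargc1a, Prkaa2 and Pdk4 were under the limit on every array. The rise of Ppargc1b was lost without fatty liver vehicle array 1 or 3 or healthy liver vehicle array 1 or 3 under vehicle, and without array 2 of either Anti-VEGF group under Anti-VEGF. The count that fell under Anti-VEGF became 2 without healthy liver vehicle array 2 and 3 without fatty liver Anti-VEGF array 3.

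The listed genes of mitochondrial beta-oxidation, which include later steps of the cycle, showed no shared direction. All 14 listed genes were tested, and 2 rose and 2 fell under vehicle, with a median of 0.00, and 2 rose and 3 fell under Anti-VEGF, with a median of -0.06. Acadl, the long-chain acyl-CoA dehydrogenase, was at 8.72, 8.86 and 8.80 on the fatty liver vehicle arrays, and at 7.96, 8.21 and 7.94 on the healthy liver vehicle arrays. The groups did not overlap, and the log2 differences were 0.75 (SE 0.12, limma adjusted p = 0.000825) under vehicle and 0.67 (limma adjusted p = 0.00145) under Anti-VEGF. Acadvl, the very-long-chain enzyme, rose by 0.23 and 0.26. Hadh, the short-chain hydroxyacyl-CoA dehydrogenase, fell by 0.59 and 0.57, and Eci1, an enoyl-CoA isomerase, by 0.41 and 0.40. Decr1, which handles unsaturated chains and is named after its values were seen, fell by 0.24 under Anti-VEGF, which passed in 2 of 12 fits with an array left out. Its difference of -0.03 under vehicle did not pass, and the interaction did not pass either. The trifunctional protein gene Hadha had differences of 0.04 and 0.22 that did not pass. With single arrays left out, each of these counts ranged from 1 to 3. Under vehicle the 2 that rose became 1 when array 1 or 3 of fatty liver or array 1 of healthy liver was left out, and the 2 that fell became 1 when array 2 or 3 of fatty liver or array 1 or 3 of healthy liver was. Under Anti-VEGF the 2 that rose became 1 when array 3 of healthy liver was left out, and the 3 that fell became 1 when array 1 or 2 of fatty liver or any array of healthy liver was.

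**Figure D5:**
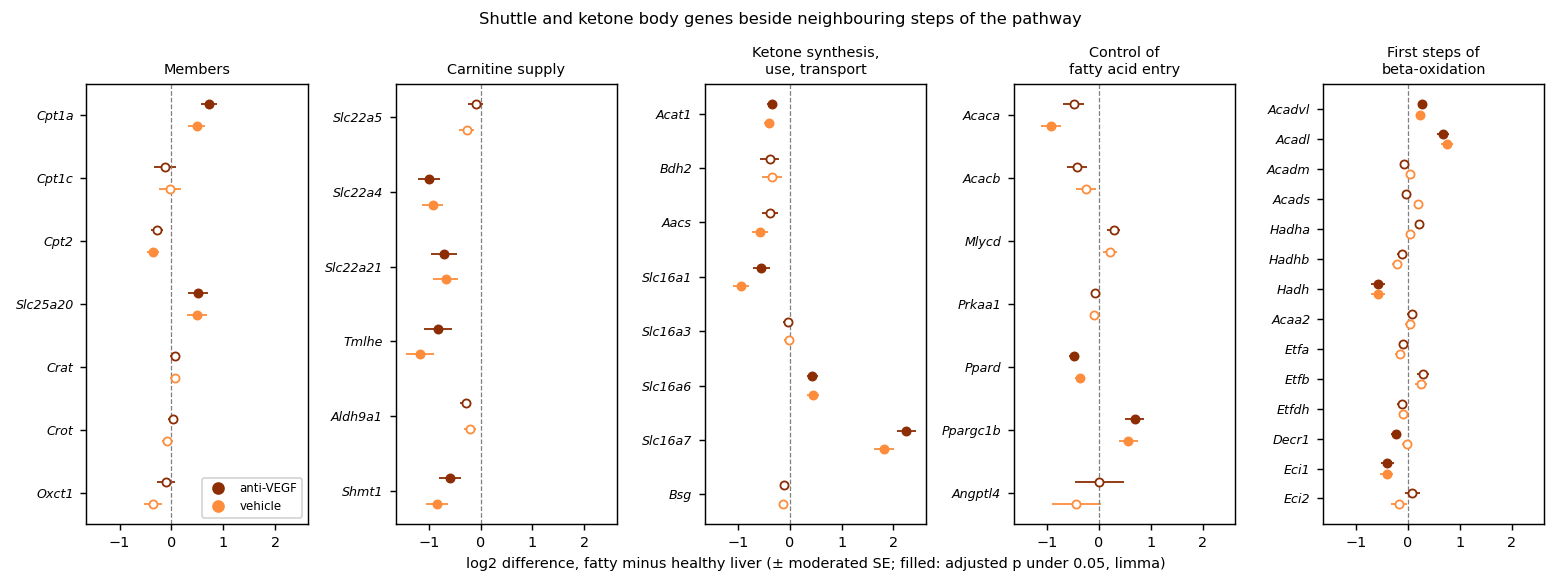
Log2 difference, fatty minus healthy liver (x axis, ± moderated SE), of the tested members and of the tested genes of 4 neighbouring lists, under Anti-VEGF (upper, dark) and vehicle (lower, light); filled points passed in limma. Slc16a7 lies farthest to the right at 2.25 and 1.82, and the 4 filled carnitine supply genes lie to the left of 0 under each treatment.

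Across the 4 lists, no gene passed in either treatment comparison or in the interaction. With nearly alike arrays averaged, every count between livers was 0 apart from that of Slc16a7. With array 2 alone in each vehicle group, the vehicle counts were 0 risen and 0 fallen for carnitine supply, 0 and 1 for ketone bodies, 0 and 1 for control of entry, and 0 and 0 for beta-oxidation. The lists' counts between livers stand beside 49.6% of all tested genes called under vehicle (19.2% higher, 30.4% lower) and 45.8% under Anti-VEGF (18.2% higher, 27.6% lower). The counts are given for the genes the lists hold and not as a result about the lists.

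For each member that passed, the 3 tested genes with the most similar profile over the 12 arrays were found from the root mean square difference of profiles centred on their own means. For Cpt1a these were Leprot (0.0888), Msl3l2 (0.0940) and Wdr41 (0.0956), against 0.354 between Cpt1a and a flat profile. For Slc25a20 they were Rara (0.0938), a retinoic acid receptor gene, Coq10b (0.108) and Crtc3 (0.122), against 0.330 for a flat profile. For Cpt2 they were Mrpl37 (0.0370) and Mrps7 (0.0446), which encode mitochondrial ribosomal proteins, and the Mediator subunit gene Med25 (0.0371), against 0.196 for a flat profile. None of the 3 shuttle genes was among the genes nearest to another.

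By mean level, Cpt1a ran in the order fatty liver Anti-VEGF (10.02 ± 0.34), fatty liver vehicle (9.96 ± 0.07), healthy liver vehicle (9.48 ± 0.23) and healthy liver Anti-VEGF (9.30 ± 0.04; SD, n = 3 each). Slc25a20 ran from fatty liver vehicle (8.64 ± 0.39) over fatty liver Anti-VEGF (8.49 ± 0.22) and healthy liver vehicle (8.15 ± 0.15) to healthy liver Anti-VEGF (7.98 ± 0.11). For Cpt2 the order was healthy liver vehicle (9.31 ± 0.12), healthy liver Anti-VEGF (9.29 ± 0.05), fatty liver Anti-VEGF (9.02 ± 0.22) and fatty liver vehicle (8.94 ± 0.10). In each of these orders the neighbours from the same liver did not pass the test. Oxct1 spanned group means from 9.26 ± 0.16 in fatty liver vehicle to 9.62 ± 0.30 in healthy liver vehicle, with fatty liver Anti-VEGF at 9.37 ± 0.32 and healthy liver Anti-VEGF at 9.47 ± 0.06 between them, and no neighbours differed beyond their spread. Crot lay between 8.28 ± 0.03 and 8.49 ± 0.13, Crat between 9.46 ± 0.04 and 9.62 ± 0.12, and Cpt1c between 5.27 ± 0.13 and 5.47 ± 0.45. A lower row of Crat was at 5.07 to 5.68 over the 12 arrays. Bdh1 was at 4.19 to 4.47 in fatty and 4.06 to 4.37 in healthy liver, all values under the limit and so with no order.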

How the data were processed

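Deposited values of 12 single-colour arrays were analysed. The authors deposited a log2 value per array row; the log2 scale was read from the values (1.82 to 14.5), and the column medians were 4.88 to 4.99. Labelling with the WT PLUS kit is per the labels' protocols, and Affymetrix Expression Console is named per the submitters' processing notes. Details of normalization, centring, summarisation and genome build were not given in the sources used here. No further normalization was applied. Symbols came from the platform annotation (1 symbol for 23521 of 41345 rows, several for 1814, none for 16010).

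One limma model (version 3.58.1, R 4.3.3) holding 1 mean for each group was fitted by lmFit and eBayes to the 13286 tested genes, with 8 residual and 2.40 prior degrees of freedom, and p-values were adjusted over all of them by the Benjamini-Hochberg method. The 5 contrasts were fatty against healthy liver under each treatment, Anti-VEGF against vehicle in each liver, and their interaction. Arrays carry no depth, so their number limits the precision.

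Named besides the members were, per neighbouring list, up to 4 genes that passed by smallest p, and the 3 nearest profiles of each member that passed. Other listed genes, named where they did not pass or lay under the limit, and Aacs and Decr1 fall outside that rule and were chosen after their values were seen. The members and lists were chosen with earlier results of these data known.

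Replicate numbers recur in all groups. Deviations of same-numbered arrays from their group means had a correlation over 0.1 for every number only when the vehicle groups were set against each other (0.536, 0.701 and 0.549), a pairing that the labels do not state. Arrays 1 and 3 correlated as much across numbers (0.574 and 0.553), so these values set array 2 apart from the others and do not match arrays 1 and 3 by number. Alternatives covered the filter, quantile normalization, array weights, the replicate block, averaged nearly alike arrays, 2-group fits, an intensity trend, the second Crat row and single arrays left out.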

Additional observations from a re-analysis of the deposited data

How the results depend on the processing

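The differences of Cpt1a and Slc25a20 under each treatment and of Cpt2 under vehicle kept their direction in all 108 refits and passed in 74. Of the 30 differences that did not pass, 17 changed sign in some refit, at sizes of at most 0.30. Between livers under vehicle, 0 to 4 members and 4689 to 7337 of all genes passed with 1 array left out, with 0 members when array 2 of fatty liver or array 1 or 3 of healthy liver was omitted, and 1 when array 3 of fatty liver was. Under Anti-VEGF the ranges were 1 to 3 members and 4274 to 7475 genes, with 1 member when any Anti-VEGF array of healthy liver, Anti-VEGF array 1 or 2 of fatty liver, or vehicle array 1 or 3 of healthy liver was omitted. For treatment, 0 members and 0 to 11 genes passed in fatty liver, 0 and 0 to 41 in healthy liver, and 0 and 0 for the interaction. With no filter, 2 members passed between livers under vehicle and 1 under Anti-VEGF, Slc25a20 being lost in each. Before adjustment, 3 members had a limma p under 0.05 there under each treatment, with 8270 of 22180 genes under vehicle and 8177 under Anti-VEGF. With array weights, 5 members passed between livers under each treatment, with 9448 of all 13286 tested genes under vehicle and 9884 under Anti-VEGF. That fit called 1, 2 and 1 members with 1848, 1661 and 1477 genes for treatment in fatty liver, in healthy liver and the interaction. With the replicate block, 3 and 2 members passed between livers (6671 and 6259 genes), and 0 genes for treatment in fatty liver. With the block on the 6 vehicle arrays alone, 4 members and 7181 genes passed. Compared with the fit of all 12 arrays, this added Oxct1 (limma adjusted p = 0.0246) and changed no other member's call. Compared with the fit of the same 6 arrays without the block, it added Slc25a20 as well as Oxct1. With nearly alike arrays averaged, 0 and 0 members and 721 and 510 genes passed between livers, and 0 genes for treatment in fatty liver, from fewer samples. With 2-group fits, 2 members passed between livers under vehicle, Slc25a20 being lost, and 0 genes passed for treatment in fatty and 47 in healthy liver, and with an intensity trend 9 in healthy liver. In the 2-group fit between livers under vehicle, 2 members and 7333 genes had an unadjusted p under 0.05 in limma. With vehicle array 2 of each liver alone, 0 members and 1057 genes passed between livers under vehicle, and 0, 754 and 19 genes for treatment in fatty liver, in healthy liver and the interaction. Without the pair of arrays between the livers, an alternative chosen after seeing the data, 4 members passed between livers under each treatment, and 0, 39 and 1 genes in those other comparisons. At an unadjusted p under 0.05 in limma, 4 members passed there between livers under each treatment, with 8626 genes under vehicle and 8570 under Anti-VEGF. The mean of both Crat rows was 7.48 in fatty liver Anti-VEGF, 7.45 in fatty liver vehicle, 7.36 in healthy liver Anti-VEGF and 7.37 in healthy liver vehicle tumours. Causes were not tested. Values near the limit, such as those of Cpt1c and Ppargc1b, can understate a difference.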
